A study of Mus musculus with 6 samples.

Results

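The striated muscle myosin heavy chains are the motor proteins of the thick filament, and 9 of their genes (Myh1, Myh2, Myh3, Myh4, Myh6, Myh7, Myh7b, Myh8 and Myh13) were taken by symbol from the 33924 genes of a table of RPE/choroid RNA. RPE/choroid is the retinal pigment epithelium together with the vascular coat beneath it, scraped from the sclera of C57BL/6J mice without any added allele or treatment. Per the labels, 3 libraries came from young mice of 1 to 2 months and 3 from aged mice, for which the titles give 20 to 24 months and the time label gives 22 to 24 months. Every mouse carries a male label, but the study's own text speaks of both sexes and puts the young mice at a somewhat higher age. The labels describe cutting away muscles, connective tissue, cornea, lens and optic nerve before the RPE/choroid was scraped.

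The table holds, for each gene, 1 mean over the 6 libraries in normalized counts (baseMean) and the authors' deposited DESeq2 comparison of the groups. It has no value per mouse, so values in single libraries, their overlap between groups and the depth of each library are unknown here. Replicate error enters only through the standard error (SE) of each log2 fold change. All fold changes below are written as aged over young. The direction of the comparison is not written in the table. It was taken from the side on which the study places more of its called genes, and every direction given here rests on that.

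Each heavy chain pairs a motor head, which splits ATP and pulls on actin, with a long coiled tail that packs into the thick filament. Mammals carry several such genes, and muscle fibres differ in speed largely through the gene they use. Myh3 (embryonic) and Myh8 (perinatal) serve developing and regenerating fibres. Myh2, Myh1 and Myh4 encode the adult fast IIa, IIx and IIb chains, in order of rising speed. Myh13 encodes the superfast chain of the extraocular muscles, which move the eye. Myh7 is the chain of slow fibres and, in the mouse, of the fetal ventricle, Myh6 is the main chain of the adult mouse heart, and Myh7b an ancient slow-tonic chain. Extraocular muscles are known to keep several of these chains, developmental ones included, in the adult.

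Of the 9 genes, 6 lie in 1 row on the plus strand of chromosome 11 (GRCm38), from Myh3 at 67078300 to the end of Myh13 at 67371586, a span of 293287 bases. The order along the chromosome is Myh3, Myh2, Myh1, Myh4, Myh8 and Myh13. Myh6 (54941921 to 54966927) and Myh7 (54970684 to 54994626) are neighbours on the minus strand of chromosome 14, and Myh7b lies on chromosome 2 at 155611212 to 155634307. RefSeq promoter windows, each with 250 bases before and 50 bases after an annotated start (build GRCm38.p6), were found for all 9 genes, in 10 windows since Myh7 has a pair. The windows of 5 genes of the chromosome 11 row are shown, because these genes include the 3 that differed with age and the most abundant one, whose difference did not pass the test. Each runs 5′ to 3′ on the plus strand. The windows are chr11:67170777-67171076 for Myh2, chr11:67199852-67200151 for Myh1, chr11:67237562-67237861 for Myh4, chr11:67276874-67277173 for Myh8 and chr11:67326853-67327152 for Myh13. Capitals mark the E-box (CANNTG), the TATA box (TATAAA), the MEF2 site and the CArG box (both searched by their usual consensus) and a run of 14 letters that 4 windows share, each searched on both strands. Some RefSeq starts differ from the gene starts of the annotation used for the gene positions above, most of all for Myh13. Distances and matches therefore hold for the RefSeq start only.
Myh2: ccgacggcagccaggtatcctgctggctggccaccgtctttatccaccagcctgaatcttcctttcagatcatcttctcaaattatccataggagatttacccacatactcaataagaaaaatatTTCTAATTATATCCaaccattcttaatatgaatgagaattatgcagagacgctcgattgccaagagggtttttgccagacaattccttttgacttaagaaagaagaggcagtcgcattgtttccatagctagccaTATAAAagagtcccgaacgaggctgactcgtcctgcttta
Myh1: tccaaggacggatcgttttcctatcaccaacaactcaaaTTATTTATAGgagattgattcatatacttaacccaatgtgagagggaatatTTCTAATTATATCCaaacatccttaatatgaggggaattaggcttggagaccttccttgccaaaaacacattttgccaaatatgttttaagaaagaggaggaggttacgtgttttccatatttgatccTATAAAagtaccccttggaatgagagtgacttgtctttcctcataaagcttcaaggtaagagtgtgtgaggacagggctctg
Myh4: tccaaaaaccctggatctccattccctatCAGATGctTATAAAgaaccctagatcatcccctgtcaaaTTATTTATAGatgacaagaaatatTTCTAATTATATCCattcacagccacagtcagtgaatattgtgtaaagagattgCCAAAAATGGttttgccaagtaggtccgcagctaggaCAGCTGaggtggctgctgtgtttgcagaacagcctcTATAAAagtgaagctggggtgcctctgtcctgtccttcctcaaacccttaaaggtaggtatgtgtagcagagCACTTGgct
Myh8: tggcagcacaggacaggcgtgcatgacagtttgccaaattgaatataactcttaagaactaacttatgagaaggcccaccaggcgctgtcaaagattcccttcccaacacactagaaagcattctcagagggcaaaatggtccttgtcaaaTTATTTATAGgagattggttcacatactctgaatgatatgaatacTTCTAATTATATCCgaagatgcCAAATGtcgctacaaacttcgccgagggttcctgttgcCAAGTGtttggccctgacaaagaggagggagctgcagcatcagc
Myh13: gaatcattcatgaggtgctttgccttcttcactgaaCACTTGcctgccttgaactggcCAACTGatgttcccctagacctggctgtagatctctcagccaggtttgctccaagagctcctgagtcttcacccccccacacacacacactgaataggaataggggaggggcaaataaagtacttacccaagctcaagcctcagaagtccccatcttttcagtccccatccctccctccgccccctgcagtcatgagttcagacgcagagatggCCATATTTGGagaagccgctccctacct

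The shared run, TTCTAATTATATCC, stood in the windows of Myh1, Myh2, Myh4 and Myh8 and in 4 of 32851 RefSeq promoter windows in all (0.0122%), so in these genes alone among the windows searched. It began at -125 in Myh2, -160 in Myh1, -158 in Myh4 and -54 in Myh8, counted from the annotated start. It was found, after the windows had been read, by looking for the longest run held by at least 4 of the 9 genes. A MEF2 site, the target of the MEF2 muscle regulators, was present in the windows of Myh1, Myh4 and Myh8, against 1.86% of all windows. In each of these it overlapped a TATA box match read on the minus strand. The TATA box was matched at any position in 6 of the 10 windows, against 13.6% of all windows. Shortly before the start it began at -32 in Myh1, -29 in Myh3 and -31 in Myh4. In Myh2 (+11) and Myh6 (+2) it began after the start, and Myh8 had only the match on the minus strand. The E-box, bound by MyoD-type factors among others, was matched in 8 of 10, against 72.3%. A CArG box, the target of serum response factor, was matched in the windows of Myh4 and Myh13, against 1.63% of all windows. The Myh13 window held 2 E-boxes, 1 CArG box and neither a TATA box, a MEF2 site nor the shared run. This window (67326853 to 67327152) lies inside the annotated gene, which starts at 67321658. Its bases after the RefSeq start open with ATG, and the CArG box begins at +23 among them. What the window holds or lacks therefore does not describe the sequence before the annotated gene start.

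Because the members are close relatives, the share of each transcript that could be told apart was measured. Of the 31-base words in the longest Myh1 transcript of the GENCODE M21 annotation, 55.1% occurred in no other gene on either strand. The share was 59.5% for Myh2, 69.6% for Myh4, 67.5% for Myh8, 86.3% for Myh13 and 88.8% for Myh3. Myh1 and Myh2 were each other's nearest relatives, with 28.1% of words in common, and Myh4 shared 19.4% of its words with Myh1. For the cardiac pair the shares were 67.5% for Myh6 and 61.4% for Myh7, which had about 32% in common (32.3% of Myh6 and 31.7% of Myh7), whereas 99.7% of Myh7b words were its own. Over words of 100 bases, the length of a read in the study, the share in no other gene was between 85.3% (Myh1) and 100% (Myh7b). Sailfish, the quantifier used with its default settings, divides reads that match several transcripts by an estimate from all reads, and the table does not show how many were divided so. Values of Myh1, Myh2, Myh6 and Myh7 are uncertain to the extent that such reads went to a relative. So are those of the scarce Myh8 and Myh13, where few reads from an abundant relative would weigh more. Of the 31-base words of Myh1, 17.6% also occurred in Myh8 and 6.07% in Myh13. For Myh4 these shares were 15.7% and 5.76%. Over 100 bases they were 2.66% and 0.853% for Myh1, and 1.47% and 0 for Myh4.

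**Figure D1:**
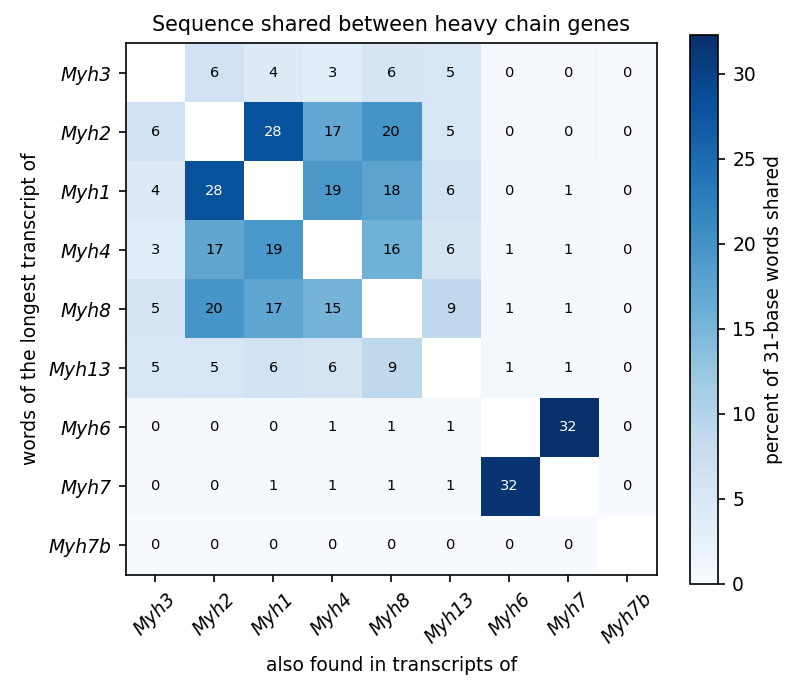
Percent of the 31-base words of each gene's longest transcript (rows) that also occur in transcripts of another heavy chain gene (columns). The adult fast genes Myh1, Myh2 and Myh4 and the perinatal gene Myh8 form 1 block, Myh6 and Myh7 form another, and Myh7b shares almost nothing.

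The fast chains made up nearly all of the heavy chain signal. The authors' normalized counts were made from TPM values, a transcript abundance scaled by length and library, and whether they are already per length is not given in the sources used here. If they are, the baseMean itself is the level per length, and if not, the values per kb are. Comparisons with genes of other lengths, such as ranks and shares of the whole table, depend on this. Longest transcripts of the members ran from 6016 to 6230 bases, a ratio of 1.04, so levels per length hardly differ from the baseMean itself, and the order of the 9 genes was the same on both scales. Myh4 led with a baseMean of 51830 normalized counts, or 8615 per kb of transcript, and ranked 20 among the 33924 genes. Myh1 followed with 18610 (3060 per kb), Myh2 with 6379 (1049 per kb) and the embryonic Myh3 with 3980 (660 per kb). After Myh3 the level dropped by a ratio of 11.2 per kb to Myh7, with a baseMean of 366, and Myh8, with 269. The lowest were Myh13 (55.3), Myh7b (33.1) and Myh6 (10.8). Per kb, the 3 fast genes held 94.2% of the summed level, the developmental pair 5.21%, the slow and cardiac genes 0.488% and Myh13 0.0675%. Together the members took 0.425% of all normalized counts in the table.

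No error can be put on these means, so whether neighbours in the order, such as Myh7 and Myh8 at a ratio of 1.34 per kb, differ beyond the spread between mice is unknown. Dividing by the union of all annotated exons in place of the longest transcript left the order as it was. As a ratio it moved the level of Myh8 most, from 43.7 to 22.8 per kb.

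In aged mice, 3 of the 9 heavy chain genes were lower and none was higher by the adjusted p of DESeq2. At an unadjusted p under 0.05 there were 4 of 9, all lower, with Myh8 as the fourth, against 32.6% of all genes tested in either direction and 16.1% in the lower direction. Myh13, the extraocular chain, showed the largest fall among the 9, with -1.53 on the log2 scale, and the IIa and IIx chains Myh2 and Myh1 fell by 0.84 and 0.70. The most abundant chain, IIb (Myh4), had 0.35 and did not pass. Over all 18636 genes with an adjusted p, 21.2% differed at the threshold of 0.05, made up of 9.92% that were lower and 11.3% that were higher in aged mice. With 3 of 9 lower, the members' share (33.3%) lay above that background, a description of 9 related genes and not a test. Their median log2 fold change was -0.58, against -0.01 for all genes tested. In bulk tissue, a smaller number of muscle fibres and less RNA per fibre cannot be told apart.

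For the adult fast chains the values split by gene. On the log2 scale Myh1 stood at -0.70 (SE 0.20, adjusted p 0.00395), which is 0.616 of the young level with a 95% interval from 0.471 to 0.807. The corresponding value of Myh2 was -0.84 (SE 0.25, adjusted p 0.00586), or 0.560 of the young level (0.401 to 0.783). Myh4 had 0.35 (SE 0.22, adjusted p 0.273), a ratio of 1.27 with an interval from 0.941 to 1.73. That interval reaches from a slight decrease to an increase, and the point estimates of Myh1 and Myh2 lie outside it.

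Myh13, the extraocular chain, had -1.53 (SE 0.41, adjusted p 0.00202), or 0.345 of the young level (0.197 to 0.605). Its SE was the largest of the 3 genes called, and its level the lowest. How far reads divided among the more abundant relatives enter its value was not tested. If fold changes were shrunken before deposit, which is not stated, the size of this fall is understated. Where a change of 1 or more on the log2 scale was asked for as well, Myh13 was the 1 member left, since Myh1 and Myh2 do not reach it.

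The developmental chains had negative values that did not pass. Myh8 had -1.03 (SE 0.42, adjusted p 0.0637) and an unadjusted p of 0.0147. With the median of genes at a baseMean of 100 or more set to 0, a shift of 0.06 called centring below, it had -1.10 with an adjusted p of 0.0461, so its call depends on the scaling. Myh3 had -0.58 (SE 0.44, adjusted p 0.374), with an interval from -1.43 to 0.28. A change of Myh3 under 1.12 on the log2 scale could not have been called at this SE.

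The slow and cardiac chains showed no detectable difference at this precision. Myh7 had -0.04 (SE 0.45, adjusted p 0.970), with an interval from -0.92 to 0.84. Myh6 had -0.22 (SE 0.46, adjusted p 0.787) at the lowest level of the 9 genes. Myh7b had 0.05 (SE 0.39, adjusted p 0.950), a sign that turned to -0.015 after centring. As ratios, the intervals ran from 0.530 to 1.80 for Myh7, from 0.460 to 1.60 for Myh6 and from 0.612 to 1.75 for Myh7b, and changes within these bounds are not excluded.

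**Figure D2:**
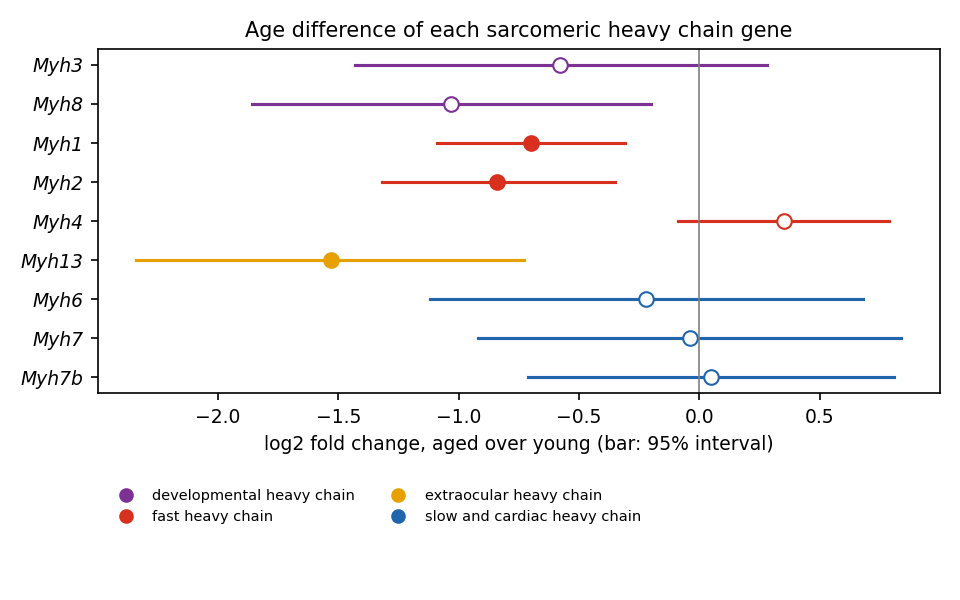
Log2 fold change of each member, aged over young, with its 95% interval from the deposited SE (3 young and 3 aged libraries); filled points have an adjusted p under 0.05. The intervals of Myh1, Myh2, Myh13 and Myh8 lie wholly left of 0, though Myh8 did not pass after adjustment, that of Myh4 lies mostly to the right, and the intervals of Myh3, Myh6, Myh7 and Myh7b are wide.

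Whether Myh4 differed from its relatives in its response to age was described by the difference of fold changes. The covariance of estimates from the same libraries is unknown, so each 95% interval was taken as wide as any correlation could make it, a step added after the values had been seen, with Myh4, the highest value of the 9, as the reference. The difference to Myh4 was -1.05 for Myh1 (-1.88 to -0.22), -1.19 for Myh2 (-2.11 to -0.26), -1.38 for Myh8 (-2.65 to -0.12) and -1.88 for Myh13 (-3.13 to -0.64). These 4 intervals exclude 0. For Myh3 (-0.93, interval -2.22 to 0.37), Myh6, Myh7 and Myh7b they include it. The intervals are not adjusted for the 8 differences examined.

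The share of each chain at either age was also described. Means per group were worked out from the baseMean and the fold change, taking both groups as equal in size. On that basis Myh4 went from 45577 normalized counts in young mice to 58083 in aged mice, Myh1 from 23028 to 14192 and Myh2 from 8177 to 4581. Per kb, Myh4 held 55.6% of the 9 genes' level in young mice and 72.2% in aged mice. The summed level of Myh1 and Myh2 relative to Myh4 went from 0.677 to 0.320. Summed per kb over all 9 genes the aged level was 0.980 of the young one, and without Myh4 it was 0.613. These derived values carry no error of their own and rest on the point estimates, including that of Myh4, which did not pass the test.

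**Figure D3:**
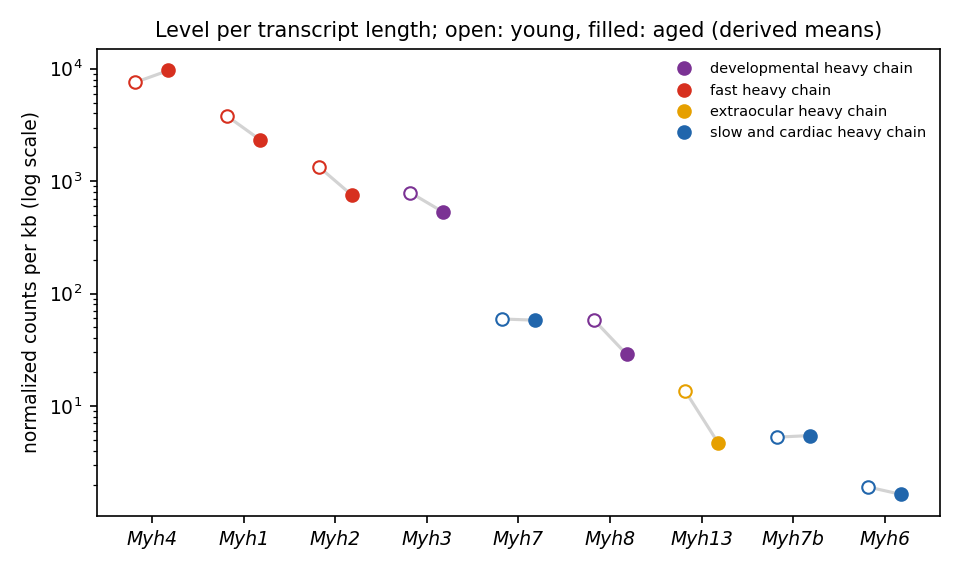
Group means per kb of transcript, derived from baseMean and fold change, on a log scale; open points are young and filled points aged mice, coloured by class of chain. Myh4 is the highest and Myh6 the lowest at both ages, and the steepest fall is that of Myh13.

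Large SEs marked several members. The SE was 0.44 for Myh3, while the median among the 1039 genes tested with a baseMean within 1.5-fold of it was 0.13, and 99.5% of those genes had a smaller SE. Myh7 (0.45 against 0.17) and Myh8 (0.42 against 0.19) stood apart in the same way. In the abundant chains the gap was smaller, with 0.20 against 0.14 for Myh1, 0.25 against 0.14 for Myh2 and 0.22 against 0.15 for Myh4. For all 9 members the SE was above the median of genes of like level. The SE of a DESeq2 fold change grows with the spread between libraries of a group, and which mice carry that spread cannot be seen without values per library.

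**Figure D4:**
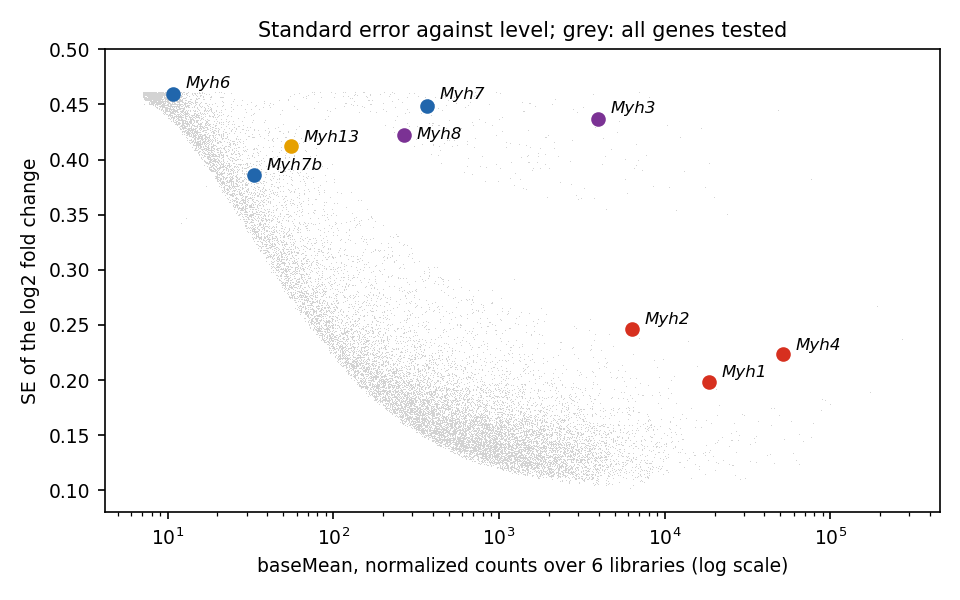
SE of the log2 fold change against baseMean (log scale) for all genes tested (grey) and the 9 members (coloured by class as in the plot of fold changes). Each member's SE is above the median of genes of its level, most clearly for Myh3, Myh7 and Myh8.

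Further genes lie within the chromosome 11 row. The antisense gene 9430073C21Rik, between Myh2 and Myh1 on the minus strand (67195680 to 67199234), overlaps the end of Myh2 by 1838 bases and was named after its value was seen. At a baseMean of 27.3, its fold change was -2.04 on the log2 scale (SE 0.42, adjusted p 1.88e-05). The kit marks strand, but the sources used here do not say whether counting used it, so reads of this gene and of Myh2 cannot be told apart with certainty. The long non-coding RNA 2310065F04Rik, between Myh3 and Myh2, had -0.37 (SE 0.27, adjusted p 0.356). Of the microRNA genes inside the slow and cardiac chains, Mir208b and Mir499 were listed at 0 and Mir208a had a baseMean of 0.167.

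Myosin light chains sit on the neck of the heavy chain, and both light chains of fast fibres were lower in aged mice. Mylpf, the fast regulatory light chain, had -0.92 on the log2 scale (SE 0.16, adjusted p 1.18e-07), and Myl1, the fast essential light chain, had -0.94 (SE 0.20, adjusted p 5.30e-05). Of the 6 sarcomeric light chain genes, 5 were tested, 2 were lower and 3 did not pass. The slow and ventricular light chain Myl2 had -0.10 (SE 0.46), close to its partner Myh7 in value and SE. The median of the 5 genes was -0.39.

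Among 10 further genes of fast fibres, 8 were tested and 1 was lower. Casq1, which stores calcium in the sarcoplasmic reticulum, had -1.32 (SE 0.20, adjusted p 7.13e-10). The other 7 did not pass, among them the calcium pump gene Atp2a1 (-0.20, SE 0.35), and the troponin gene Tnnt3 (-0.27, SE 0.20). The creatine kinase gene Ckm (0.06, SE 0.19) and Mybpc2 (0.48, SE 0.19), named because of it, had no p-value. DESeq2 leaves the p-value out where 1 library lies far from the rest. The list's median was -0.16, and centring added a call of Pvalb, a calcium buffer of fast fibres (-0.42, SE 0.18, adjusted p 0.0856, and 0.0413 after centring).

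Slow fibre genes gave 2 lower and 1 higher of 10 tested, with a median of -0.45. Casq2, the slow and cardiac calsequestrin, had -1.24 (SE 0.28, adjusted p 0.000120), and Myoz2, a Z-disc protein, had -1.13 (SE 0.35, adjusted p 0.00856). Tpm3, a tropomyosin that non-muscle cells also make, rose by 0.30 (SE 0.12, adjusted p 0.0433) but had an adjusted p of 0.129 after centring. Mybpc1, a thick filament protein of slow fibres, had -0.49 (SE 0.22, adjusted p 0.0891), and 0.0487 after centring, which makes the list 3 lower and 0 higher on that scale.

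Of 18 genes shared by striated fibres, 17 were tested, 4 were lower, 1 was higher and 12 did not pass. The largest difference was that of Actc1, the actin of heart and of developing skeletal muscle, at -2.04 (SE 0.28, adjusted p 1.86e-11). Cav3, the muscle caveolin, had -1.19 (SE 0.23), and the Z-disc genes Actn2 and Ldb3 had -0.70 (SE 0.24) and -0.66 (SE 0.22). Myom2, an M-band protein that links thick filaments, went the other way at 1.54 (SE 0.22, adjusted p 1.85e-10). Acta1, the adult skeletal actin, had -0.65 (SE 0.37, adjusted p 0.212), and Ttn, with the highest baseMean of the list at 160213, had -0.76 (SE 0.21) and no p-value.

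Among 5 genes for folding and assembly of myosin, Hsp90aa1, a general chaperone, was higher at 0.45 (SE 0.16, adjusted p 0.0217), a call that centring ended (adjusted p 0.0556). The methyltransferase Smyd1, which takes part in sarcomere assembly, had -0.43 (SE 0.19, adjusted p 0.0942), and 0.0478 after centring. Of 15 regulators and satellite cell genes, 12 were tested and 2 were lower: Myf6, a myogenic transcription factor, at -0.78 (SE 0.24, adjusted p 0.00873) and Chrne, the adult acetylcholine receptor subunit, at -1.34 (SE 0.46, adjusted p 0.0219). Pax7, the satellite cell factor, had -1.16 (SE 0.45, adjusted p 0.0506), and 0.0367 after centring. Chrne and Pax7 were both scarce, with a baseMean of 9.50 and 7.90, against 129 for Myf6. The median of these 12 was -0.48, and the abundant Mef2c, a MEF2 factor that other cells make too, had 0.13 (SE 0.14).

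Over these 6 lists, 57 of 64 genes were tested, 11 were lower (19.3%, against 9.92% of all genes tested) and 3 were higher (5.26%, against 11.3%), with a median of -0.27. In either direction 24.6% were called, near the 21.2% of all genes. After centring there were 15 lower and 1 higher. Over all genes the same step turned 1849 lower and 2100 higher into 2289 lower and 1655 higher, so the balance of directions depends on the scaling, whereas Myh1, Myh2 and Myh13 were called either way.

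**Figure D5:**
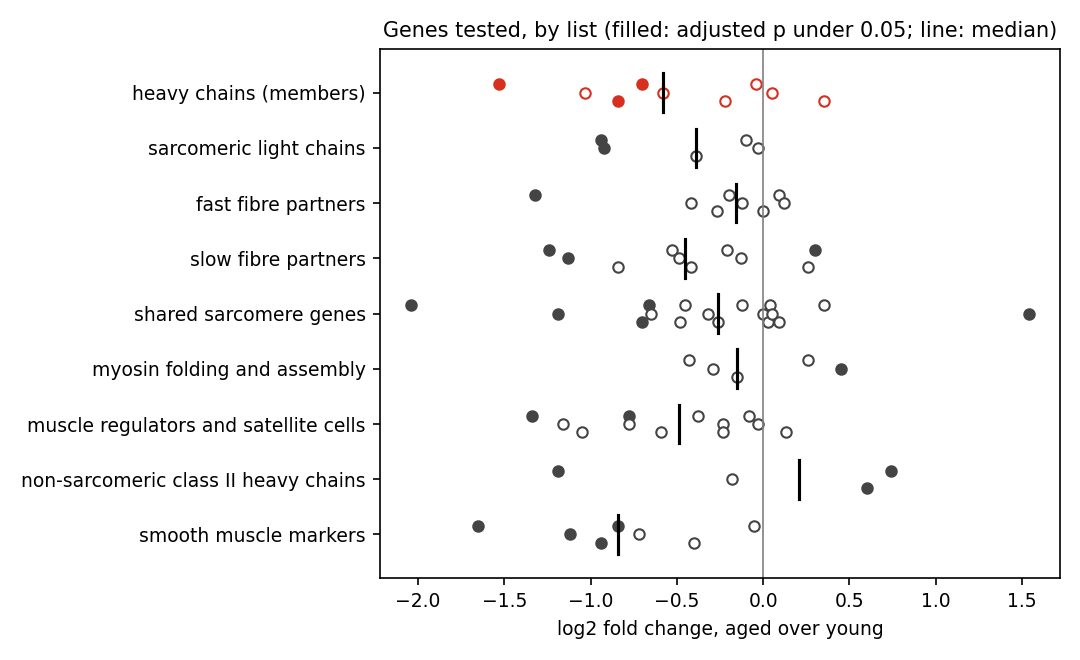
Log2 fold change, aged over young, of each gene tested in the heavy chain group and in 8 lists; filled points have an adjusted p under 0.05 and the line is the list's median. The sarcomeric lists centre at or below 0 with single genes far to the left, and Myom2 lies far to the right.

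The class II heavy chains outside striated muscle went both ways. Myh11, the smooth muscle chain, fell by 1.19 on the log2 scale (SE 0.20, adjusted p 1.96e-07). The non-muscle chains Myh9 and Myh14 rose by 0.74 (SE 0.15, adjusted p 9.55e-06) and 0.60 (SE 0.14, adjusted p 0.000375), and Myh10 had -0.18 (SE 0.13, adjusted p 0.351). Myh15, a sarcomeric relative on chromosome 16 that is not among the 9, had -0.60 (SE 0.44, adjusted p 0.355) at a baseMean of 2975, near Myh3 in fold change and SE.

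Markers of the tissue and of other cells were read from the same table. RPE markers were abundant, with a summed baseMean of 285081 over 10 genes, and 1 of the 8 tested (Best1) was higher in aged mice, a call that centring ended, and 0 were lower. Rpe65, the visual cycle isomerase that defines RPE, had a baseMean of 43745. Of 8 heart markers, 0 of the 5 tested differed, Nkx2-5, the cardiac transcription factor, was listed at 0 and the heart troponin Tnni3 had 18.7. Ryr2, the cardiac calcium release channel that other tissues make too, held most of the list's summed baseMean (372 of 434) and had -0.56 (SE 0.25, adjusted p 0.0850), with an adjusted p of 0.0499 after centring. Of 7 smooth muscle markers, 4 were lower (Acta2, Tagln, Cnn1 and Actg2), as was Myh11, and 3 did not pass. That is 57.1% lower, against 9.92% of all genes tested. The derived sum of the 7 markers in aged mice was 0.569 of the young one. Of 6 markers of choroidal endothelium 5 were tested, and 1 was higher and 0 were lower, the higher one being Vwf, the von Willebrand factor (0.69, SE 0.21, adjusted p 0.00900). All 5 proliferation markers had negative values with a median of -0.42, and 1 passed, Top2a, a topoisomerase of dividing cells (-0.56, SE 0.19, adjusted p 0.0187). Rod photoreceptor markers, 0 of 8 called, had SEs between 0.38 and 0.44, like those of Myh3 and Myh7. The part that the amount of muscle left on each eyecup has in the values of the heavy chains was not tested.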

How the data were processed

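RNA of RPE/choroid from 3 young and 3 aged mice was sequenced from ribosome-depleted, stranded total RNA libraries. The authors used BBDuk for trimming, STAR against the Ensembl GRCm38 transcriptome, Sailfish for abundance and scaling by total counts, and compared the groups in DESeq2. They deposited 1 table with the baseMean, a normalized signal over all libraries, the log2 fold change and its SE, the Wald score, the p-value and the adjusted p-value. The table holds the authors' own comparison, and it has 0 columns of single samples, so no test was refitted and depth per library is unknown. The values as deposited by the authors are therefore described, with the sign reversed. The shape of the SEs at low levels is what shrinkage of fold changes would give, which is not stated. If so, fold changes with a large SE are understated, those of Myh3, Myh6, Myh7, Myh8, Myh13 and Myh7b included, and their intervals with them, since their SEs lie between 0.39 and the largest of the table (0.46).

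The table lists 33924 genes, 7243 of them at 0. A fold change without a p-value was listed for 160 genes and a p-value without an adjusted p for 7885, whose baseMean did not exceed 7.07. Tested means the 18636 genes with an adjusted p, which include all 9 members. A gene differs where the adjusted p is under 0.05. Recomputing the adjustment gave the deposited values to within 0.572%. The 95% intervals are normal intervals from the SE.

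Gene models and transcripts came from GENCODE M21 (GRCm38) and promoter windows from RefSeq. The members and lists were chosen with earlier results of these data known. Named genes are the 9 members, listed genes that differ, the 3 most abundant of each list and those listed at 0. 9430073C21Rik, Mybpc2, Pvalb, Pax7 and Mir208a were chosen after their values were seen, as were the differences between heavy chains. Replicates are separate mice by their titles. The p-value functions were tested on simulated data. Python 3.11.15, pandas 2.3.3 and SciPy 1.17.1 were used.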

Additional observations from a re-analysis of the deposited data

How the results depend on the processing

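The calls of Myh1, Myh2 and Myh13 were the same 3 without a filter on low genes, with a minimum baseMean of 30, with an adjusted p under 0.01 and with Wald scores for genes that lack a p-value. Centring added Myh8 to them. With a fold-change minimum of 1 (log2), 1 heavy chain gene was left, Myh13. For the other muscle genes, an adjusted p under 0.01 left 9 and the fold-change minimum left 7, against 14. Both are stricter by construction. Of 53 single values recomputed, 49 kept direction and call and 1 became a call (Myh8). The fold-change minimum took the call from 2 (Myh1, Myh2), and 1 changed sign near 0 (Myh7b, to -0.015 after centring). Only centring alters the fold changes, so in the other settings direction was fixed in advance. The 2 stricter settings could not add a call. Myh6 is too low for the minimum of 30. No paired analysis was possible because single libraries have no columns. The replicate block, leaving out each mouse and edgeR were not run on that account.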
